A study of Mus musculus with 25 samples.

Results

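The interferon-induced GTPases described here were 10 mouse genes of 2 families: the guanylate-binding proteins Gbp2, Gbp3, Gbp4, Gbp5, Gbp6 and Gbp7, and the immunity-related GTPases Igtp, Iigp1, Irgm1 and Irgm2. They were taken by symbol from a count table of 55450 genes, and all 10 passed the filter on low counts (18031 genes passed). Levels came from bulk RNA sequencing of 25 melanomas grown from the B2905 line (M4), a mouse melanoma, in C57BL/6 hosts that kept their own immune system. Of 40 implanted mice, 30 received antibody to CTLA-4, the brake on T cell activation, and 5 received isotype IgG2b, each at 10 mg/kg in 2 doses per week for 2 weeks from an average size of 75 mm3. An untreated arm was not analysed here. The 4 groups were 5 control tumours under IgG2b, and, under anti-CTLA-4, 6 non-responders that kept growing, 6 stable tumours and 8 responders that shrank, as scored 10 to 11 days after the last dose. Every tumour came from 1 cell line and 1 host strain, and the tumour, not the gene, is the replicate.

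Interferon gamma, made mainly by T cells and NK cells, signals through the kinases Jak1 and Jak2, acts on promoters that hold gamma-activated sequences (GAS), and induces Irf1, which binds interferon-stimulated response elements (ISRE). Genes of both GTPase families are among the most strongly induced targets of this pathway in many mouse cell types, tumour cells and macrophages included. The proteins are best known for coating and breaking the membranes around intracellular parasites and bacteria and for promoting inflammasome signalling, and their transcripts are commonly read as a sign of local interferon gamma.

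Promoter windows from RefSeq (GRCm38.p6), 250 bases before to 50 after a start, were used for 7 of the 10 members. Gbp4, Gbp6 and Iigp1 are named only. Both motifs were searched on both strands: GAS as TTCNNNGAA and ISRE as GAAA, any 2 bases and GAAA. An ISRE match lay in the windows of 7 of 7 members and a GAS match in 4 of 7, while 3.44% and 8.3% of all 32851 windows held an ISRE and a GAS match, and 0.454% held both. The members' counts are per gene, over 8 windows, and the second window of Gbp3 held neither motif, while the shares are per window. The stretches nearest the start are shown because all 7 hold the letters of the interferon elements, in capitals here (an ISRE on the other strand reads TTTC, 2 bases, TTTC), and because the tie of these genes to Ifng is measured here. In Gbp2 (chr3:142620553-142620672, plus strand) the ISRE began 59 bases before the start, and in Gbp3 (chr3:142559934-142560053, plus strand) 2 overlapping ISRE matches began 45 and 39 bases before it. In Irgm1 (chr11:48871411-48871530, minus strand) 2 overlapping ISRE matches began 30 and 24 bases before it.
Gbp2: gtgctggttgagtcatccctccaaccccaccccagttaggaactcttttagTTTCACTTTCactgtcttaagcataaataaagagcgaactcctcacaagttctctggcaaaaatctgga
Gbp3: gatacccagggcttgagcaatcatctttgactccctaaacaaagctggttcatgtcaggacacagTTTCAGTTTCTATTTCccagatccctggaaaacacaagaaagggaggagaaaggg
Irgm1: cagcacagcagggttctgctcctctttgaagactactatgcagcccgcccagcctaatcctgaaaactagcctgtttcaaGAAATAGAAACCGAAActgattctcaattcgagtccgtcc
In the other 4 members GAS matches were also present. Gbp5 (chr3:142496684-142496943, plus strand) held 2 GAS matches, 245 and 52 bases before the start, and Gbp7 (chr3:142530226-142530345, plus strand) held 2, at 106 and 87 bases before. Their ISRE matches began 165 bases before the start in Gbp5 and 53 in Gbp7. Igtp (chr11:58199446-58199565, plus strand) and Irgm2 (chr11:58214867-58214986, plus strand) shared 1 arrangement, in which the ISRE began 11 bases after the first base of the GAS match, as it also did in the windows of the related genes Tgtp1 and Tgtp2.
Gbp5: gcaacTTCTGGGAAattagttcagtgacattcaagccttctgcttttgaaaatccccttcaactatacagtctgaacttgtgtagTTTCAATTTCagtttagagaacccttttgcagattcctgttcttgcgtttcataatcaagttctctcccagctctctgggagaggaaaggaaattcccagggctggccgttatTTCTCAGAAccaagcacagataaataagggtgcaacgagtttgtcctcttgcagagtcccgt
Gbp7: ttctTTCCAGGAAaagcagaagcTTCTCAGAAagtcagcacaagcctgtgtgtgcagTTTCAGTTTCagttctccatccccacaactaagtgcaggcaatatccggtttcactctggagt
Igtp: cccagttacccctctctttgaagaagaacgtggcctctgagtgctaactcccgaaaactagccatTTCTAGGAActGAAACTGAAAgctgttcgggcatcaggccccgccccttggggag
Irgm2: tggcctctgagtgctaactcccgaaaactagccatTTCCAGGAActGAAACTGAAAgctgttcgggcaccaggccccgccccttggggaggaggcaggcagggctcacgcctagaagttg
A match is a description of letters and was not tested as a binding site. The RefSeq start of a gene need not be the first base of its GENCODE span.

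The genes lie in clusters, given here on GRCm38 from GENCODE release 21. Gbp5 (ENSMUSG00000105504.4, 142493978 to 142522344), Gbp7 (ENSMUSG00000040253.15, 142530342 to 142550149), Gbp3 (ENSMUSG00000028268.14, 142560026 to 142573209) and Gbp2 (ENSMUSG00000028270.12, 142620602 to 142638008) follow each other on the plus strand of chromosome 3. Gbp4 (ENSMUSG00000079363.7, 105115767 to 105139586) and Gbp6 (ENSMUSG00000104713.4, 105270702 to 105293698) lie on the minus strand of chromosome 5. The span of Gbp4 overlaps Gbp8 and Gbp9, that of Gbp6 overlaps Gm43302 and that of Gbp7 overlaps Gm43802, each on the same strand. Counts of Gbp4 were not whole in 100% of libraries, as were those of Gbp3, Gbp6, Igtp and Irgm2. How far Gbp4 shares reads with Gbp8 or Gbp9 was not tested. Chromosome 11 holds Irgm1 (ENSMUSG00000046879.7, 48861968 to 48871683, minus strand), Igtp (ENSMUSG00000078853.8, 58199556 to 58207591) and Irgm2 (ENSMUSG00000069874.7, 58199618 to 58222782), both on the plus strand and overlapping. Iigp1 (ENSMUSG00000054072.12) lies on chromosome 18, 60376027 to 60392634, plus strand. Copies of these families resemble each other, and counts of some members are uncertain one by one: 70.7% of the 50-base stretches of Gbp6 also occur in another gene (65.0% in Gm43302), against 12.7% for Gbp7, 11.8% for Igtp (all shared with Irgm2), 7.77% for Irgm2, 7.70% for Gbp4 and 0.31 to 3.75% for the rest.

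Libraries held 8.76 to 34.3 M counts. Protein-coding genes took 82.9 to 89.2% of counts in every control, non-responder and stable library, but 23.8 to 87.0% in responders, where only responder 5, the highest, lay among the other groups. T cell markers (5 genes) summed to 4.03 to 14.5 CPM (counts per M of the TMM-scaled total) in controls, against 12.0 to 108 CPM in non-responders, 45.3 to 142 CPM in responders and 81.9 to 120 CPM in stable tumours. The 7 melanoma markers, in the same order, summed to 10500 to 17110 CPM, 723 to 13870 CPM, 303 to 722 CPM and 227 to 504 CPM, with none at 0. Their share in the GTPase levels was not tested, and in bulk tissue fewer cells of a type and less RNA per cell cannot be told apart.

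Under anti-CTLA-4 all 10 GTPase genes were higher than in controls in each of the 3 outcome groups, by 2.88 to 9.67-fold among non-responders, 4.14 to 21.0-fold in stable tumours and 2.59 to 21.3-fold in responders. These were 10 of 10 called, where 10.6%, 22.2% and 36.1% of all genes were called higher in those comparisons (edgeR quasi-likelihood test, adjusted p under 0.05 over all genes tested). No member was lower, as 3.29%, 19.6% and 28.9% of all genes were. The members' median log2 fold change was 2.34, 2.96 and 2.14, against 0.037, 0.025 and 0.158 over all genes. The 3 comparisons share the same 5 controls.

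Gbp4 was furthest above controls. Its levels in controls 1 to 5 were 9.07, 23.7, 20.2, 17.1 and 36.9 CPM. Non-responders ranged from 49.0 to 512 CPM with a median of 188 CPM, stable tumours from 394 to 528 CPM with a median of 422 CPM, and responders from 228 to 776 CPM with a median of 442 CPM. Every treated tumour lay above every control, and the lowest were non-responders 2 and 3, at 49.0 and 57.5 CPM. The log2 fold change over controls was 3.27 in non-responders (SE 0.49, adjusted p = 0.000436), 4.39 in stable tumours (SE 0.52, adjusted p = 1.11e-06) and 4.41 in responders (SE 0.51, adjusted p = 3.08e-07).

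Gbp2, which gathers on parasite and bacterial vacuoles, had 45.7, 77.6, 59.2, 60.3 and 99.5 CPM in controls 1 to 5. It ranged from 88.3 to 1207 CPM in non-responders (median 317 CPM), from 709 to 1373 CPM in stable tumours (median 1015 CPM) and from 377 to 842 CPM in responders (median 486 CPM). Only non-responder 2 fell within the control range. The log2 fold change over controls was 2.61 in non-responders (SE 0.45), 3.91 in stable tumours (SE 0.48) and 2.93 in responders (SE 0.45), with adjusted p of 0.000627, 1.5e-06 and 6.96e-06. Gbp5, which promotes assembly of the NLRP3 inflammasome, had 4.03, 13.0, 6.73, 8.58 and 15.0 CPM in controls 1 to 5. Non-responders had 16.4 to 93.9 CPM (median 59.9 CPM), stable tumours 93.1 to 149 CPM (median 125 CPM) and responders 73.9 to 132 CPM (median 91.6 CPM), all above every control. Its log2 fold change was 3.68 in stable tumours, 3.37 in responders and 2.56 in non-responders.

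Log2 fold changes in non-responders, stable tumours and responders were 1.83, 2.59 and 1.76 for Gbp3, 2.61, 3.42 and 2.68 for Gbp6, 2.27, 2.91 and 2.02 for Igtp and 1.95, 2.45 and 1.75 for Irgm2. Irgm1, a regulatory GTPase that keeps the effector proteins off the cell's own membranes, showed the lowest fold change in stable tumours and responders, with log2 fold changes of 2.05 and 1.37 (SE 0.29 and 0.27). In non-responders Gbp7, described as an aid to host oxidase assembly, was lowest, at 1.53 (SE 0.27). Iigp1, an effector that breaks parasite vacuoles, was in between at 2.40, 3.02 and 2.26 in non-responders, stable tumours and responders. All 6 stable tumours and all 8 responders exceeded every control for 10 of 10 members, as did 18.4% and 14.9% of all genes. All 6 non-responders did so for 6 members, Gbp4, Gbp5, Gbp6, Gbp7, Iigp1 and Irgm2, against 2.67% of all genes. For Gbp2, Gbp3, Igtp and Irgm1, 5 of 6 non-responders did, and the exception was non-responder 2.

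**Figure D1:**
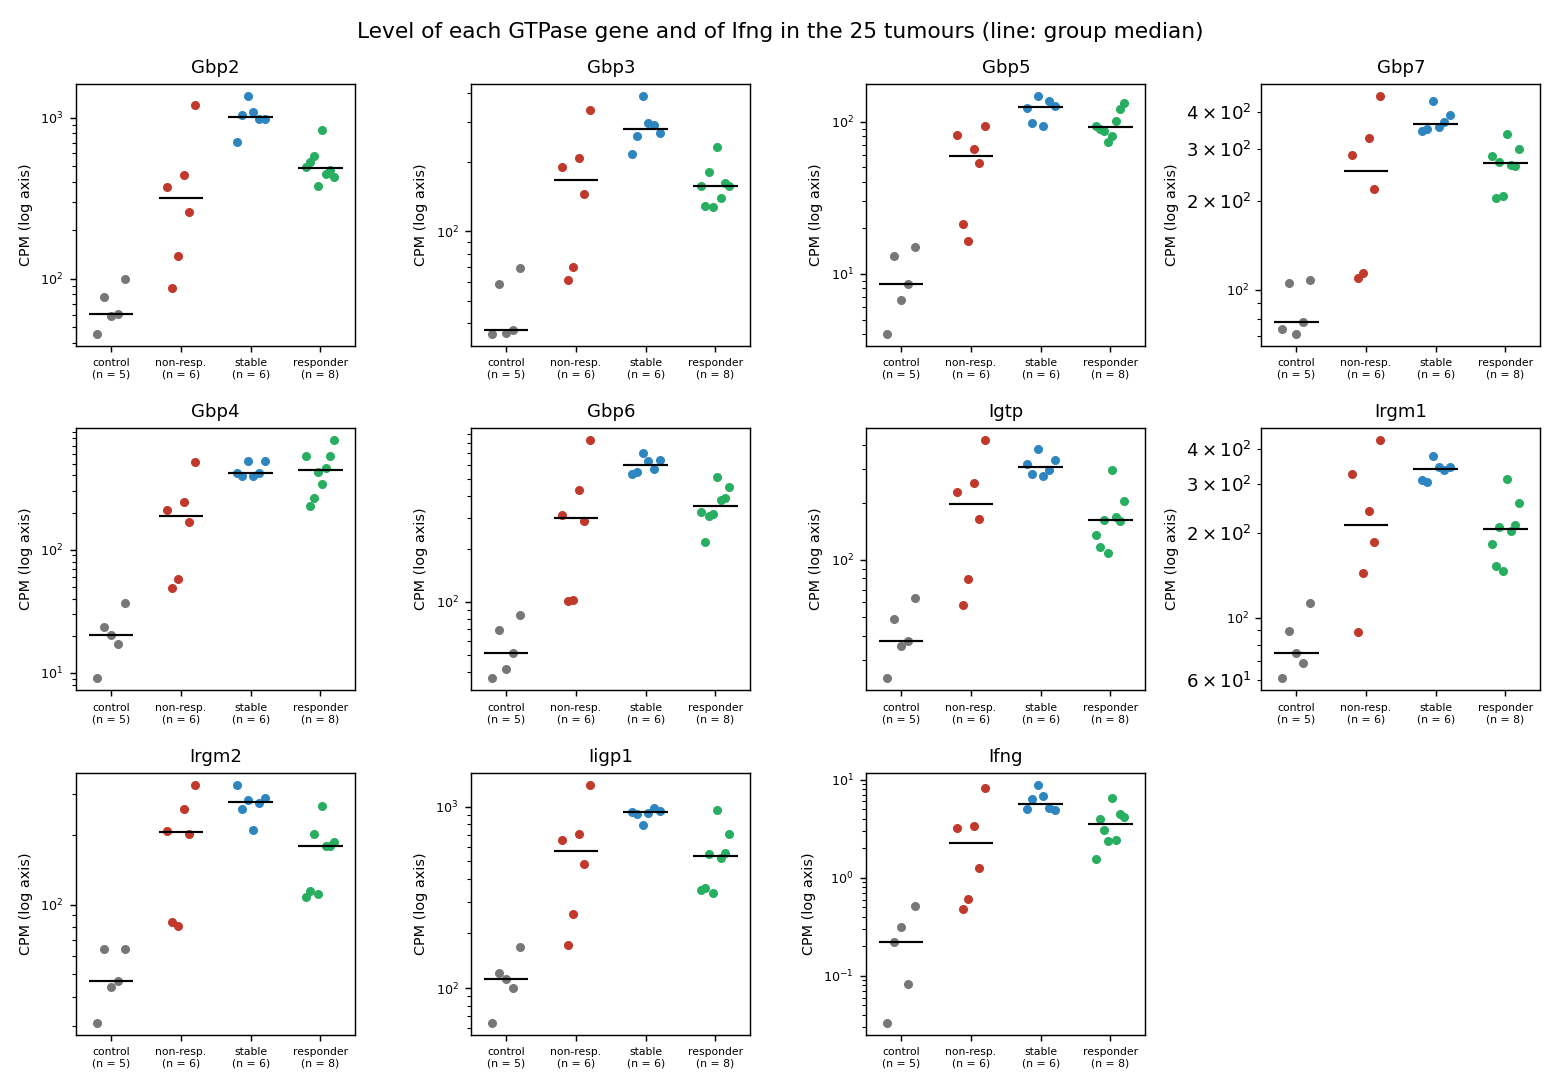
Level of each of the 10 GTPase genes and of Ifng in CPM on a log axis, 1 point per tumour, with lines at group medians for 5 controls, 6 non-responders, 6 stable tumours and 8 responders. Stable tumours form a narrow band, from 394 to 528 CPM for Gbp4, while non-responders spread from 49.0 to 512 CPM.

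Ifng itself, the gene of interferon gamma, had its lowest median in controls and its highest in stable tumours. Its level in controls 1 to 5 was 0.0333, 0.221, 0.313, 0.0822 and 0.517 CPM, from 1 to 10 counts per library. Non-responders ranged from 0.475 to 8.26 CPM (median 2.25 CPM), stable tumours from 4.92 to 8.92 CPM (median 5.71 CPM) and responders from 1.56 to 6.52 CPM (median 3.50 CPM). Over controls, its log2 fold change was 3.66 in non-responders (SE 0.66, adjusted p = 0.000793), 4.76 in stable tumours (SE 0.69, adjusted p = 8e-06) and 4.00 in responders (SE 0.66, adjusted p = 1.81e-05). Between outcome groups it was not called, at 1.11 for stable tumours over non-responders (adjusted p = 0.167), 0.34 for responders over non-responders (adjusted p = 0.587) and -0.77 for responders against stable tumours (adjusted p = 0.215). The Ifng counts, 7 to 216 per treated tumour, are few beside the 121 or more counts of each GTPase gene in every tumour.

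Ptprc, the pan-leukocyte gene, was measured beside the GTPases and had 46.5 to 97.5 CPM in controls and 84.1 to 628 CPM in treated tumours. With the log2 CPM of Ptprc as a covariate 0 members were called in any of the 3 comparisons with controls. Of all genes, 0 to 0.061% were called. At an unadjusted p of 0.05, 2, 0 and 1 members passed in non-responders, stable tumours and responders. Among all genes 3.95%, 3.19% and 27% did. With Ifng as the covariate, Gbp4 (2.33, adjusted p = 0.00481) and Gbp5 (1.59, adjusted p = 0.00888) were called in responders, 2 of 10 beside 34.1% of all genes. In the other 2 groups no member and 0% of all genes were called.

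**Figure D2:**
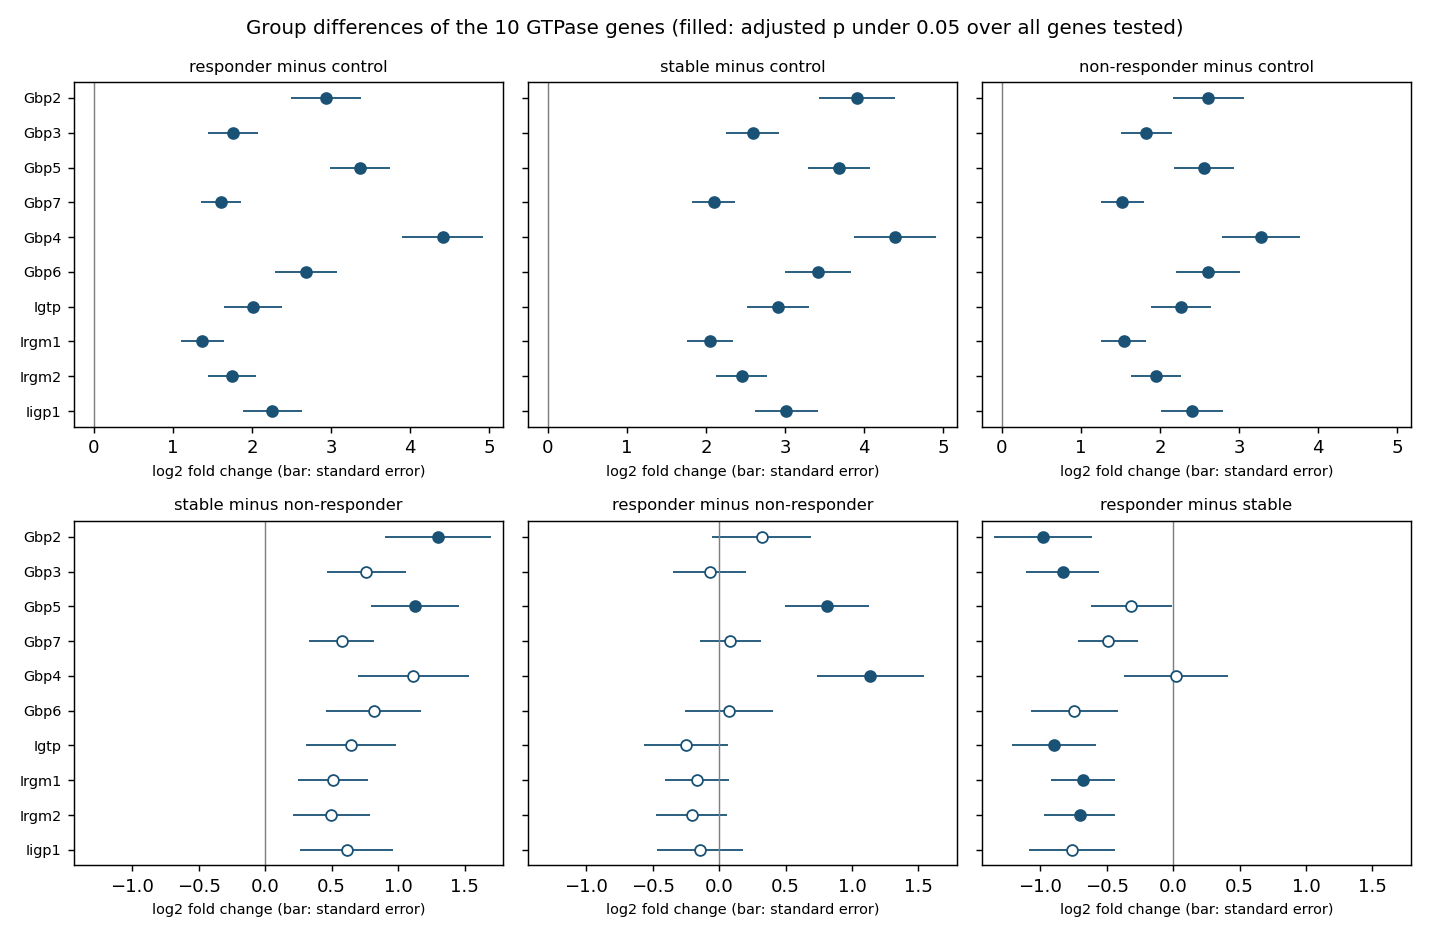
Log2 fold change of each GTPase gene in the 6 group comparisons, with bars of 1 standard error and filled points where the adjusted p over all genes tested was under 0.05. All 10 points are filled in each comparison with controls, 2 for stable tumours over non-responders (Gbp2, Gbp5), 2 for responders over non-responders (Gbp4, Gbp5) and 5 for responders against stable tumours.

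Among treated tumours, the stable group had the highest median level for 9 of 10 members, all but Gbp4. Stable tumours exceeded non-responders in Gbp2 (log2 fold change 1.30, SE 0.40, adjusted p = 0.0311) and Gbp5 (1.13, SE 0.33, adjusted p = 0.0256), 2 of 10 members, while 7.08% of all genes were called higher. No member was lower, against 7.86% of all genes. The other 8 had log2 fold changes between 0.50 and 1.12 and did not pass, and the members' median was 0.70 against -0.019 over all genes. In 5 of 6 stable tumours Gbp5 exceeded every non-responder, with ranges of 93.1 to 149 CPM against 16.4 to 93.9 CPM. The share of all genes that separate this far was not counted. For Gbp2, non-responder 6 lay within the stable range at 1207 CPM, while the other non-responders had at most 442 CPM. Without non-responder 6, 9 members were called, all but Irgm2. At an unadjusted p of 0.05 all 10 members passed in that fit, beside 33.3% of all genes. The share of all genes called at the adjusted threshold with 1 tumour left out is not given here. No member was called without non-responder 2, non-responder 3 or stable 3, and only Gbp5 without non-responder 1, non-responder 5, stable 2 or stable 4. Without non-responder 2, non-responder 3 or stable 3, 4 members passed an unadjusted p of 0.05, beside 24.3%, 24.6% and 24.8% of all genes. In the fit of only these groups both calls were lost at folds as large (Gbp2 1.30, Gbp5 1.13), with 12.4% of all genes called. With Ptprc or Ifng as a covariate 0 members and 0% of all genes were called. T cell markers (1 of 5 called), macrophage markers (2 of 5), neutrophil markers (1 of 3 tested) and Ptprc were also higher in stable tumours. The 7 melanoma markers and 2 of 4 endothelial markers were lower. The part of these markers in the difference was not tested.

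In responders against stable tumours, 5 of 10 members were lower and 0 higher, where 17.8% of all genes were called lower and 20.5% higher: Gbp2 (log2 fold change -0.98, SE 0.37, adjusted p = 0.0385), Gbp3 (-0.83, SE 0.27, adjusted p = 0.0215), Igtp (-0.90, SE 0.31, adjusted p = 0.0288), Irgm1 (-0.68, SE 0.24, adjusted p = 0.0308) and Irgm2 (-0.70, SE 0.27, adjusted p = 0.0407). The median over the 10 members was -0.72, against 0.008 over all genes. Igtp, Irgm1 and Irgm2 are the 3 regulatory members of the IRG family. Igtp had 275 to 380 CPM in stable tumours (median 307 CPM) and 109 to 297 CPM in responders (median 161 CPM). Only responder 5 reached the stable range. Gbp3 had 217 to 390 CPM in stable tumours and 128 to 233 CPM in responders, with medians of 279 and 158 CPM. Irgm1 ranged from 304 to 379 CPM against 147 to 312 CPM, and Irgm2 from 210 to 330 CPM against 108 to 267 CPM.

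Gbp6, at 532 to 702 CPM in stable tumours (median 602 CPM) and 217 to 509 CPM in responders (median 351 CPM), and Gbp7, at 343 to 436 CPM (median 362 CPM) and 204 to 336 CPM (median 268 CPM), did not overlap between these groups. Non-overlap in this direction was seen in 0.288% of all genes, yet neither was called, with log2 fold changes of -0.74 (adjusted p = 0.0749) and -0.49 (adjusted p = 0.0884). In the RPKM values both genes overlapped. Responder 8 had 134 RPKM of Gbp6, above stable 2 at 131, and 62.0 RPKM of Gbp7, above stable 4 at 56.9. For Gbp2, Gbp3, Igtp, Iigp1, Irgm1 and Irgm2, 7 of 8 responders lay below every stable tumour in CPM. Responder 5 was the exception in all 6. How many of all genes separate these groups this far was not counted. In RPKM, responder 8 also exceeded a stable tumour in Iigp1 (209 against 198 in stable 3) and Irgm2 (71.1 against 62.6 in stable 4). Iigp1 was at -0.76 (adjusted p = 0.0643) and Gbp5 at -0.31 (adjusted p = 0.429).

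Gbp4 differed little at the mean, with 0.022 as the log2 fold change (SE 0.39, adjusted p = 0.972). In Gbp4, 3 responders lay above every stable tumour and 3 below.

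The 7 responders whose CPM lay below the stable tumours in these 6 genes are the 7 with the low protein-coding share. Share and outcome therefore cannot be told apart here. With that share in the model 0 members were called, as were 0% of all genes. At an unadjusted p of 0.05, 0 members passed, beside 12.7% of all genes. With responder 5 as the lone responder the log2 fold changes ran from -0.59 (Gbp5) to 0.066 (Iigp1). On the protein-coding genes alone 2 members, Gbp3 and Igtp, were called, beside 31% of all genes. On log2(RPKM + 1) limma called 0 members beside 35.5% of all genes, and 6 members passed an unadjusted p of 0.05 beside 46.5%. There the log2 fold changes were -0.86 for Gbp2, -0.62 for Gbp3, -0.77 for Igtp, -0.59 for Irgm1 and -0.60 for Irgm2. Without stable 3 no member was called, without responder 1 or 4 only 1, and without stable 2, 4, 5 or 6 or responder 2, 6, 7 or 8 there were 3. At an unadjusted p of 0.05, 6 members passed without stable 3, beside 45.2% of all genes. Without responder 1 or 4, 5 did, beside 45.2% and 44.2%. Macrophage markers fell in 4 of 5 genes, with sums of 638 to 1898 CPM in responders and 1388 to 2239 CPM in stable tumours. Endothelial markers fell in 3 of 4, with sums of 37.3 to 91.7 CPM and 71.1 to 124 CPM. Dendritic cell markers fell in 1 of 4, and no other listed marker was called, while 17.8% of all genes were called lower. The part of these markers was not tested.

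Between responders and non-responders few members were called. Gbp4 (log2 fold change 1.14, SE 0.40, adjusted p = 0.0228) and Gbp5 (0.81, SE 0.31, adjusted p = 0.0355) were higher in responders, 2 of 10 where 25.2% of all genes were called higher, and 0 were lower, against 23.8% of all genes. The other 8 lay between -0.25 (Igtp) and 0.32 (Gbp2), 5 of them below 0, and the median over the 10 was 0.002, against 0.052 over all genes. In Gbp4, 3 responders lay above every non-responder, and in Gbp5, 4 of 8 did, and the matching share of all genes was not counted. No member was called without non-responder 3, and only Gbp4 without non-responder 2, non-responder 5, responder 7 or responder 8. At an unadjusted p of 0.05, 2 members passed without non-responder 3, beside 50.6% of all genes. The calls of Gbp4 and Gbp5 were also lost without a low-count filter, in the fit of only these groups and with Ptprc or the share as a covariate. Of all genes, 25.3% were called without the filter, 39.8% in the fit of only these groups and 10% with the share. With Ptprc, 6 members were called lower and 0 higher, Gbp3, Gbp6 and the 4 IRG genes, beside 32.2% of all genes called. With the log2 CPM of Ifng as a covariate, Gbp4 (1.08, adjusted p = 0.00411) and Gbp5 (0.62, adjusted p = 0.0256) stayed higher. In that fit the 4 IRG genes were lower in responders. Igtp was lower by 0.49 on the log2 scale (adjusted p = 0.0167) and Irgm2 by 0.46 (adjusted p = 0.0349). Iigp1 was lower by 0.42 (adjusted p = 0.0415) and Irgm1 by 0.39 (adjusted p = 0.0201). These 6 of 10 stood beside 48.3% of all genes called in that fit. Ifng rested on 7 to 216 counts per treated tumour, and its counting error is not part of the fit, so Ifng is not made equal between groups.

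Because a ratio of 2 genes within a library does not depend on its scaling, Gbp4 was set against Igtp, a pair picked after the values were seen, and no test was made. The ratio of CPM was 0.378, 0.485, 0.570, 0.453 and 0.585 in controls 1 to 5. Its median was 0.942 in non-responders (0.725 to 1.21), 1.41 in stable tumours (1.33 to 1.58) and 3.16 in responders (1.16 to 4.20). Controls, non-responders and stable tumours did not overlap each other in this ratio, and how many other gene pairs separate them was not counted. Responder 5, at 1.16, was the lowest responder and the only 1 below the stable range. Gbp5 over Igtp had medians of 0.228, 0.293, 0.384 and 0.665 in controls, non-responders, stable tumours and responders. Responder 5 was again the lowest responder, at 0.271. Controls (0.168 to 0.266) and non-responders (0.207 to 0.364) overlapped in it. In the same order, medians were 1.60, 1.69, 3.47 and 3.23 for Gbp2 over Igtp, and 1.828, 1.281, 1.055 and 1.302 for Irgm1 over Igtp. The protein-coding share moved with the ratio of Gbp4 to Igtp among responders. Gbp4 over Igtp was 4.20 in responder 1, with a share of 23.8%, 3.59 to 3.94 in responders 4, 7 and 8 (54.2 to 67.3%), 1.62 to 2.72 in responders 2, 3 and 6 (70.3 to 74.3%) and 1.16 in responder 5 (87.0%). Its part in the ratio was not tested.

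**Figure D3:**
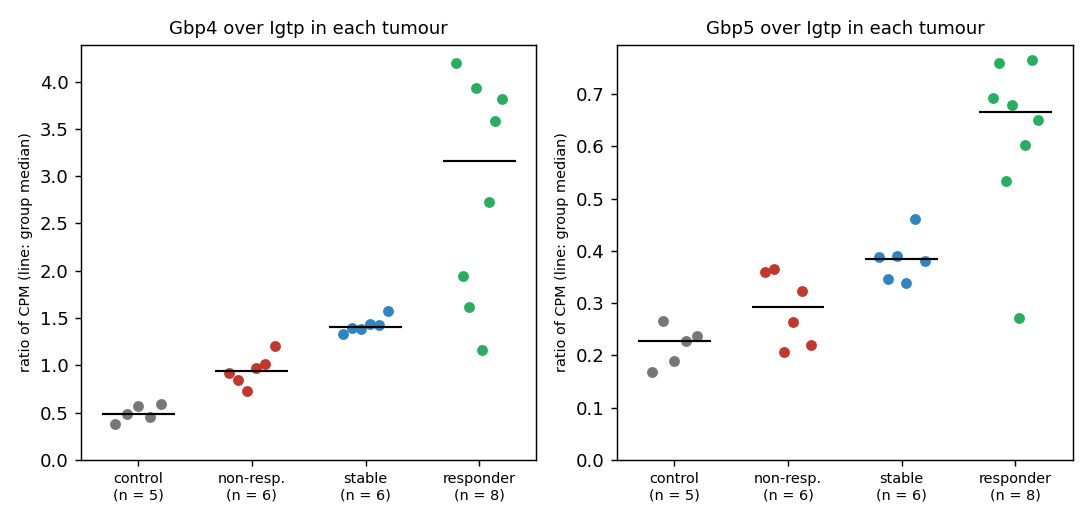
Ratio of the CPM of Gbp4 (left) and Gbp5 (right) to that of Igtp in each tumour, with lines at group medians. The stable tumours lie between 1.33 and 1.58 for Gbp4 over Igtp and the responders between 1.16 and 4.20.

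Levels of different members were compared per length, from the authors' RPKM values. In stable tumours Gbp2 (median 291 RPKM, range 208 to 377) and Iigp1 (243, 198 to 251) were highest and overlapped each other. Gbp6 (142, 131 to 169) came next, below every Iigp1 value, followed by Igtp (116), Irgm1 (106), Gbp4 (84.3), Irgm2 (79.0), Gbp3 (70.1) and Gbp7 (59.2), each overlapping its neighbours in range. Gbp5 (31.2, 22.3 to 34.0) was below all of them. In controls Iigp1 was highest (31.4 RPKM, 16.6 to 45.4) and every neighbour overlapped down to Gbp3 (9.73, 9.02 to 17.8), with Gbp4 (4.42, 2.07 to 7.84) below it and Gbp5 (2.12, 1.17 to 3.56) last, overlapping Gbp4. In responders Gbp4 had a median of 102 RPKM (48.6 to 196), below those of Gbp2 (156) and Iigp1 (143), and its range overlapped both.

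The tie to Ifng was measured tumour by tumour, as the slope of a gene's log2 level on the log2 CPM of Ifng with the 4 group means in the model. All 10 members had a positive slope, from 0.40 for Gbp7 (SE 0.063) to 0.70 for Gbp2 (SE 0.078), where 6.44% of all genes were called positive and 1.57% negative, and their adjusted p ran from 7.72e-06 to 0.00133. The median slope was 0.56 against -0.006 over all genes. Ranked by slope over its standard error among 18030 genes, Gbp2 was 12, Iigp1 14, Igtp 19, Irgm1 32, Gbp3 35, Gbp6 68, Gbp7 149, Irgm2 186, Gbp5 336 and Gbp4 356. Counting error in Ifng is not part of this model.

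Ptprc rose and fell with Ifng within groups (r = 0.838 over 25 tumours after subtraction of group means, given as a description). With Ptprc as a further covariate the 10 slopes were 0.25 to 0.57, and 0 members were called, as were 0% of all genes. At an unadjusted p of 0.05, 8 of 10 passed, and the share of all genes that did is not given here. The slopes and their calls held in the 20 treated tumours alone and with the share of protein-coding counts added. Whether the slope differed between groups was tested by an interaction: 0 members were called (adjusted p from 0.233 to 0.727) and 0.061% of all genes, while 3 members, Gbp2, Gbp4 and Gbp7, had an unadjusted p under 0.05, as did 15.2% of all genes.

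**Figure D4:**
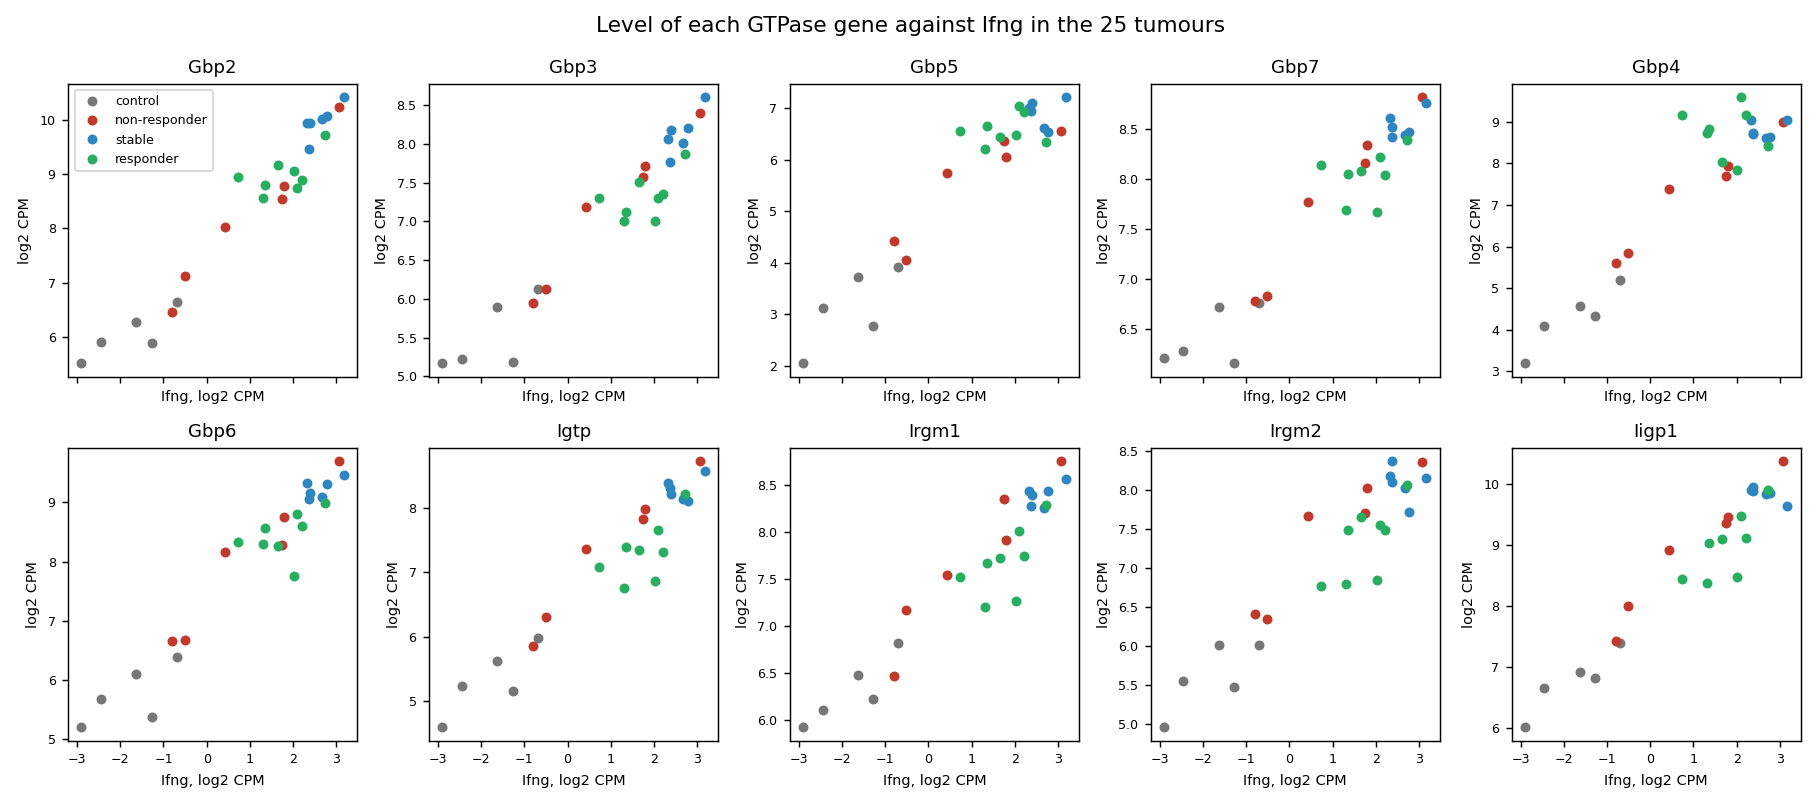
Log2 CPM of each GTPase gene against log2 CPM of Ifng, 1 point per tumour, coloured by group. Non-responders (red) follow a line in every panel, with r from 0.924 to 0.982, and the stable tumours (blue) crowd at the upper right.

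In non-responders the tie was close. Across these 6 tumours Pearson's r ran from 0.924 (Gbp5) to 0.982 (Gbp3), and 7 members ranked the tumours exactly as Ifng did (rho = 1). The exact permutation p of r ran from 0.00139, the smallest that 6 tumours allow, to 0.00833, and that of rho from 0.00278 to 0.0333. At an unadjusted p of 0.05, r passed for all 10 members, where 12.5% of all genes did. Adjusted over all 18030 genes, the p were 0.175 to 0.246 for r and 0.275 to 0.315 for rho. With these 0 members were called, as was no gene at all. Without non-responders 2 and 6, the farthest from the median of Ifng, r was 0.879 to 0.976 over 4 tumours. Non-responder 6 had the highest level of each of the 10 genes and of Ifng, at 8.26 CPM, and non-responders 2 and 3 the lowest.

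In stable tumours, whose Ifng spanned only 4.92 to 8.92 CPM, r ran from -0.928 for Iigp1 (exact permutation p = 0.0153, adjusted p = 0.166, rho = -0.771 with p = 0.103) to 0.813 for Gbp2 (exact p = 0.0528, adjusted p = 0.264, rho = 0.829 with p = 0.0583). Without stable tumours 3 and 4 these became -0.719 and 0.428. Across the 8 responders r ran from -0.176 for Gbp4 (exact p = 0.677, adjusted p = 0.820, rho = 0.024 with p = 0.977) to 0.751 for Iigp1 (exact p = 0.0303, adjusted p = 0.314, rho = 0.881 with p = 0.00724 and adjusted p = 0.601). Without responders 1 and 5 they were 0.21 and 0.413. No member passed the adjusted threshold in either group. At an unadjusted p of 0.05, r passed for 1 member in stable tumours and for 2 in responders, Iigp1 and Irgm2, where 19.0% and 14.6% of all genes did.

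The members varied together. After subtraction of group means, the 45 pairs correlated at r from 0.74 to 0.967 over the 25 tumours, with a median of 0.887, as a description of libraries that share depth and cell content. By the same measure the 5 other genes most like the members were Gm4951 (mean r 0.923), Gvin1 (0.922), Gm12250 (0.912), Serpina3f (0.904) and Irf1 (0.903).

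Of 14 other genes of the 2 families, 13 were above controls in stable tumours, 13 in non-responders and 12 in responders, beside 22.2%, 10.6% and 36.1% of all genes. Gbp10 was highest in non-responders (log2 fold change 3.81) and stable tumours (4.82) and Gbp8 in responders (4.29), while Irgq, an unusual family member, was lowest in all 3 (-0.01, -0.20 and 0.077) and was not called. In responders against stable tumours 4 of 14 fell (17.8% of all genes did), Gbp2b, Tgtp1, Tgtp2 and Ifi47, with Gbp2b the lowest at -2.05 (adjusted p = 0.00941) and Gbp8 the highest at 0.36, not called. Against non-responders 3 of 14 rose in responders, a share below the 25.2% of all genes, with Gbp8 the highest at 1.62 (adjusted p = 0.00108) and Gbp2b the lowest at -0.83, not called. In stable tumours over non-responders 4 of 14 rose (7.08% of all genes did), with Gbp11 the highest at 1.33 (adjusted p = 0.0273) and Irgq the lowest at -0.19, not called. The slope on Ifng was positive and called for 12 of 14.

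A list of 25 genes of the interferon gamma pathway, from its receptor to other target genes, was also counted. Of these, 20, 24 and 21 were higher than in controls in non-responders, stable tumours and responders, and none was lower, where 10.6%, 22.2% and 36.1% of all genes were higher. Irf1 had log2 fold changes of 1.86, 2.74 and 2.24, all called. Nos2, the inducible nitric oxide synthase, was highest in stable tumours (6.34) and responders (6.34), and Cxcl11 lowest in both (0.38 and -0.20, not called). In non-responders Ifngr2 was lowest (0.21, not called). The highest there, Ido1 (4.44, SE 1.07, adjusted p = 0.00647), rested on 39 counts in non-responders and 1 in controls. Pooled over tumours, the ratio was 40.4 with an exact 95% counting interval of 6.84 to 1637. That interval leaves out the spread between tumours.

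In responders against stable tumours 8 of 25 were lower and 0 higher, beside 17.8% and 20.5% of all genes. There Irf1 was at -0.51 (adjusted p = 0.124), B2m lowest at -1.09 (adjusted p = 0.0125) and Nlrc5 highest at 0.57, not called. Stable tumours exceeded non-responders in 10 of 25, beside 7.08% of all genes, among them Irf1 (0.88, adjusted p = 0.0372) and, highest, Nos2 (2.43, adjusted p = 0.0127), while Cxcl11, the lowest at -0.16, was not called. Responders exceeded non-responders in 5 of 25, a share below the 25.2% of all genes, with Nos2 highest at 2.43 (adjusted p = 0.00272), and Irf1 (0.37) and Cxcl11, the lowest at -0.74, were not called. The slope on Ifng was positive and called for 21 of 25, including Irf1 (0.50).

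The listed sources of interferon gamma, 10 genes of T cells, NK cells and the cytokines that drive them, included Ifng itself and were higher than in controls in 8, 9 and 8 of 10 genes in non-responders, stable tumours and responders, beside 10.6%, 22.2% and 36.1% of all genes. The medians over the list were 2.70, 3.76 and 3.60 in that order. Responders exceeded non-responders in Tbx21 (0.97), a factor that drives Ifng in T cells, and in Il12rb2 (1.64), an interleukin 12 receptor chain, both named after their values were seen, which is 2 of 10 and no more than the 25.2% of all genes, and 0 of 10 were called in the other 2 comparisons between outcome groups. Of 9 genes that act with the GTPases at vacuoles and inflammasomes, 3, 5 and 4 were called higher than in controls and 0, 0 and 2 lower, in the same order. In responders these counts were near the 36.1% higher and 28.9% lower of all genes. Responders exceeded non-responders in 5 and were lower in 1, beside 25.2% and 23.8% of all genes. Against stable tumours they were higher in 1 and lower in 3, beside 20.5% and 17.8% of all genes. Stable tumours exceeded non-responders in 4, beside 7.08% of all genes. Named after their values were seen, Aim2, Nlrp3 and Gsdmd were called over controls in all 3 groups, Nlrp3 by 2.00, 2.82 and 3.17 and Gsdmd, which encodes the pore protein of pyroptosis, by 1.24, 1.96 and 1.92.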

How the data were processed

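RNA libraries from 25 tumours were compared, with groups taken from the outcome and antibody in the labels. Tumours carry different animal numbers, and replicates were numbered in record order, which pairs none. The labels name a stranded total RNA kit but polyA RNA, a difference not resolved here. Library numbers run by group. The labels do not say whether these numbers give the order of processing. If they do, group and order cannot be separated here. The authors deposited expected counts per gene (5.64% of values not whole), which were rounded where whole counts had been planned for, and RPKM values, whose lengths and denominator the sources used here do not give. The submitters' processing notes name bcl2fastq 2.17, Trimmomatic, STAR 2.5.1, RSEM 1.2.22 and mm10, without roles. All 55450 gene identifiers matched GENCODE release 21 for GRCm38.

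Counts were filtered with filterByExpr by group (18031 genes), scaled with TMM and tested two-sided in edgeR 4.0.16 (R 4.3.3) by robust quasi-likelihood with 4 group means over all 25 tumours. P-values were adjusted by Benjamini-Hochberg over all genes tested, genes under 0.05 are called, and standard errors came from the fold change and F statistic. Slopes on Ifng and their interaction with group were fitted the same way without Ifng itself. Correlations used log2 CPM (prior count 2) and exact permutation of tumours. The scripts were tested on simulated data. Alternatives were DESeq2 1.42.0, limma 3.58.1 on log2(RPKM + 1) and log2(RPKM + 0.1), RLE size factors, other filters, covariates and left-out tumours. All members and Ifng were named, with Irf1 and the highest and lowest gene of each interferon list and of the other family genes. A further gene of the naming rule is not reported here. The closest replicates differed by a chi-square of 16.9 per gene, so each tumour was counted as its own library. Members and lists were chosen with earlier results of these data known.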

Additional observations from a re-analysis of the deposited data

Results flagged for a closer look

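Dixon's criterion for a single value far from the rest of its group was applied to 44 groups of values (10 GTPase genes and Ifng in 4 groups), and by chance about 1 in 20 groups passes it. Of the values, 3 did. Gbp2 in non-responder 6 stood at 1207 CPM, and the nearest other non-responder was at 442 CPM. Ifng in the same tumour stood at 8.26 CPM, with the nearest at 3.36 CPM. Gbp2 in responder 5, the responder with a protein-coding share like that of the other groups, stood at 842 CPM, and the next responder was at 575 CPM.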

How the results depend on the processing

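No paired analysis was possible because the labels give no replicate numbers that groups share. Of the alternatives, those without 7 responders and with summed copies were chosen after seeing the data, and summing copies moved no count. With a lone responder, its spread is assumed to be that of the other groups. Where no cause is given, the cause was not tested. In responders against non-responders the number of members called (2) was 0 without a filter, with the protein-coding share and with only the 2 groups. Beside these 0, 25.3%, 10% and 39.8% of all genes were called. It was 6 with Ptprc (all lower), 6 with Ifng as a covariate (2 higher, 4 lower), and 0 to 3 with 1 tumour left out. Of all genes, 32.2% were called with Ptprc and 48.3% with Ifng. There Gbp3 was 0.022 under the stricter filter. The share gave Gbp3 0.043, Igtp 0.005, Iigp1 0.196, Irgm1 0.011 and Irgm2 0.121. Ptprc gave Gbp2 -0.343, Gbp6 -0.587, Gbp7 -0.412 and Ifng -0.697, and Ifng gave Gbp6 -0.067 and Gbp7 -0.065. On log2(RPKM + 1) Gbp3 was 0.259, Igtp 0.056, Iigp1 0.071 and Irgm1 0.005, and on log2(RPKM + 0.1) they were 0.271, 0.061, 0.073 and 0.007. Without the 7 responders Gbp3 was 0.458, Igtp 0.556, Iigp1 0.672, Irgm1 0.398 and Irgm2 0.456. With 1 tumour left out Gbp3 ran from -0.243 to 0.252, Gbp6 from -0.116 to 0.556, Gbp7 from -0.071 to 0.338, Igtp from -0.443 to 0.113, Iigp1 from -0.338 to 0.255, Irgm1 from -0.336 to 0.095 and Irgm2 from -0.363 to 0.012.

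In responders against stable tumours the number called (5) was 2 under the stricter filter, 2 with protein-coding genes only and 8 with only the 2 groups. Of all genes, 38.9%, 31% and 33.1% were called there. The number was 0 with the share or Ifng as a covariate, beside 0% and 28.4% of all genes. It was 0 in the RPKM fits, beside 35.5% and 34.4%, and 0 to 7 with 1 tumour left out. The RPKM fits moved the median of all genes by 0.121 and 0.127. Gbp4 was -0.031 without a filter, -0.331 with the share, -0.381 without the 7 responders and -0.129 to 0.123 with 1 tumour left out. Gbp5 was 0.145 with Ifng, and without the 7 responders Iigp1 was 0.066 and Ifng 0.077. Ifng was called with only the 2 groups (-0.731).

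In stable tumours over non-responders the number called (2) was 1 without a filter, where 5.78% of all genes were called. It was 0 with Ptprc, with Ifng and with only the 2 groups, beside 0%, 0% and 12.4% of all genes. It was 5 in both RPKM fits and 0 to 9 with 1 tumour left out. Ptprc gave Gbp3 -0.09, Gbp6 -0.145, Gbp7 -0.119, Igtp -0.319, Iigp1 -0.277, Irgm1 -0.178, Irgm2 -0.332 and Ifng -0.331, and Ifng as the covariate gave Igtp -0.082, Iigp1 -0.118, Irgm1 -0.079 and Irgm2 -0.118. Both RPKM fits called 20% of all genes. Ifng was called in the RPKM fits (1.01 and 1.57) and ran from 0.883 to 1.80 with 1 tumour left out, called only without non-responder 6.

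Over controls 10 members were called under every alternative but Ptprc or Ifng as a covariate. Ptprc gave 0 in all 3 groups and Ifng gave 2 in responders, 0 in stable tumours and 0 in non-responders. With Ptprc the responder values were -0.43 for Gbp3, -0.066 for Gbp6, -0.187 for Gbp7, -0.555 for Igtp, -0.204 for Iigp1, -0.334 for Irgm1, -0.397 for Irgm2 and -0.119 for Ifng, and Ifng lost its call in stable tumours (0.247) and non-responders (0.578). With Ifng they were -0.042 for Gbp3, -0.142 for Igtp and -0.236 for Irgm1. The filters moved the median of all genes in responders over controls by -0.186 (none) and 0.135 (stricter). Slopes on Ifng were called for 10 members under every alternative but Ptprc as a covariate (0), and their interaction for 0 under all run.

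Correlations with Ifng on log2(RPKM + 1) were 0.039 for Gbp4 in responders and -0.031 for Gbp5 in stable tumours. With 1 tumour left out they ran in responders from -0.382 to 0.025 for Gbp4 and from -0.07 to 0.595 for Gbp7, and in stable tumours from -0.711 to 0.658 for Gbp4, -0.956 to 0.268 for Gbp5, -0.478 to 0.792 for Gbp7, -0.901 to 0.582 for Igtp and -0.08 to 0.805 for Irgm1. Ifng had 7 to 145 counts in responders and 79 to 160 in stable tumours, which limits the precision of these values.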

Other observations

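Genes known mainly as targets of type I interferon were counted in the same comparisons. Of 18 tested, 11 were above controls in non-responders (10.6% of all genes were), 6 in stable tumours (22.2%) and 5 in responders (36.1%), where 4 were below (28.9%). Responders were below non-responders in 13 of 18, beside 23.8% of all genes, with Cmpk2, a mitochondrial nucleotide kinase, lowest at a log2 fold change of -1.61 (adjusted p = 5.96e-05) and Oas2 highest at 0.20, not called. They were below stable tumours in 10, beside 17.8% of all genes, and above in 1, Oas2 (0.94, adjusted p = 0.0412), with Ifit3 lowest at -0.97 (adjusted p = 0.0086). Stable tumours and non-responders differed only in Cmpk2 (-0.91, adjusted p = 0.0214), and Ifih1 was highest at 0.062, not called. Over controls, the highest were Ifi44 in non-responders (1.46), Oas3 in stable tumours (1.27) and Oas2 in responders (1.38), all called, and Rsad2 was lowest in each, at 0.14 and -0.45, not called, and -1.16 (adjusted p = 0.00103). The slope on Ifng was positive and called for 10 of 18, with a median of 0.29 against 0.56 for the 10 GTPase genes. Responders also differed in protein-coding share (23.8 to 87.0%, against 82.9 to 89.2% in the other groups), and its part in these differences was not tested.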
